A study of Mus musculus with 4 samples.

Results

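Transcripts of 10 early genes (Egr1, Egr2, Egr3, Nab2, Ier2, Ier3, Ier5, Csrnp1, Srf and Myc) were examined in resting CD4 T cells that lack the Ifitm gene family, against wild-type (WT) cells. The genes were given as a set, and each was represented by its brightest probe set among those annotated to exactly 1 gene. All 10 were found among the 19937 genes measured in this way, each by 1 probe set. Whole-transcript profiles came from Affymetrix Mouse Gene 1.0 ST arrays, 4 in all, of which 2 held RNA from IfitmF-/- and 2 from WT splenic cells. IfitmF-/- mice carry a deletion of the entire Ifitm cluster and, per the study, are on a C57BL/6 background. WT mice carry the intact cluster, animals of both genotypes were 6 to 8 weeks old, and neither group received a treatment. Per the study, every array held RNA of cells from 2 mice that were pooled, and the replicates were purified separately. After red cell lysis with ammonium chloride, unwanted splenocytes were depleted to leave CD4 T cells, with no sort for naive cells, so the preparations can hold memory and regulatory CD4 T cells as well as a remainder of other spleen cells.

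Early response genes are transcribed within minutes of a signal and need no new protein for it. In T cells, ligation of the antigen receptor activates the MAP kinase ERK, which phosphorylates ternary complex factors of the Elk group on promoters bound by serum response factor (SRF), and Egr genes are among the first to be transcribed. Egr proteins are zinc finger transcription factors, and Nab proteins bind them and repress their activity. The Ier genes and Csrnp1 belong to the same early wave, while Myc links receptor signals to growth and division. The levels given below are log2 of RMA intensity, and each change is IfitmF-/- minus WT on that scale.

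Promoters of Csrnp1, Ier3 and Nab2, which passed the test, and of Srf and Egr2, which carry SRF motifs, are given here. Ier2, which also passed, had no entry in the promoter table used, nor had Egr3 and Myc. Egr1 was left out of the promoter search, so SRF motifs in its promoter were not examined. RefSeq sequences (build GRCm38.p6) were used for 6 of the 10 genes, in windows of 300 bases that run 250 bases before to 50 after an annotated gene start. They were searched on both strands for the CArG box that SRF binds, the NF-κB site, the Egr site GCGNGGGCG, the CRE half-site TGACG, the AP-1 site TGANTCA, the E-box CACGTG that Myc and its partners bind, the ETS site CCGGAAG and the GC box GGGCGG. All are printed 5′ to 3′ on the strand of the gene, with every match in capitals.
Csrnp1, chr9:119984693-119984992, minus strand: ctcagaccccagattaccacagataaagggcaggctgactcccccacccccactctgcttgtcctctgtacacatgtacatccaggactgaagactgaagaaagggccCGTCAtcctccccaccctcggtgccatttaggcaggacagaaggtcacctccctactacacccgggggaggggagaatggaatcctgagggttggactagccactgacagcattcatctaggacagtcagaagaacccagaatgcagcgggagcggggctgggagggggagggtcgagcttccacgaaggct
Csrnp1, chr9:119982974-119983273, minus strand: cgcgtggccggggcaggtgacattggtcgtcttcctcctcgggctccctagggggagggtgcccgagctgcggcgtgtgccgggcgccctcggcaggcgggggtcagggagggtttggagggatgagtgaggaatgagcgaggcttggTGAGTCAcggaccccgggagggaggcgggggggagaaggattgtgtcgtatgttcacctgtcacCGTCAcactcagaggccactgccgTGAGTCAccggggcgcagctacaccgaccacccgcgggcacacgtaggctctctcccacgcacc
Ier3, chr17:35821463-35821762, plus strand: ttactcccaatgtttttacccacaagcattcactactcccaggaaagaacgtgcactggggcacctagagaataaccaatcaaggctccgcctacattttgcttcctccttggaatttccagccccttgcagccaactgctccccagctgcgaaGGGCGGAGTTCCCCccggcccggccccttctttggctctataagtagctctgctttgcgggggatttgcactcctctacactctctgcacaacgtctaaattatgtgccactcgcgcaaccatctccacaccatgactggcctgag
Nab2, chr10:127666654-127666953, minus strand: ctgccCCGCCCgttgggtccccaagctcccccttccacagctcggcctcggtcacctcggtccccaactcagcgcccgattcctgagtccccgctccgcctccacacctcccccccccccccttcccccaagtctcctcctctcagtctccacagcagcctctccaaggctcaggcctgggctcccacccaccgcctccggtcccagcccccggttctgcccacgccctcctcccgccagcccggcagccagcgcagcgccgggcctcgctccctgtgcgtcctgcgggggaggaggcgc
Srf, chr17:46556113-46556412, minus strand: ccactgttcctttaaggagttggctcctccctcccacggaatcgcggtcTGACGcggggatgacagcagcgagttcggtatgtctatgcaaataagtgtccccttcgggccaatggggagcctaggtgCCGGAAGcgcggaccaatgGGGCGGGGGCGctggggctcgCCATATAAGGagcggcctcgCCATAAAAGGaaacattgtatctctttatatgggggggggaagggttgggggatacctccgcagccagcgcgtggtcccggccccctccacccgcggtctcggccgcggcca
Egr2, chr10:67537619-67537918, plus strand: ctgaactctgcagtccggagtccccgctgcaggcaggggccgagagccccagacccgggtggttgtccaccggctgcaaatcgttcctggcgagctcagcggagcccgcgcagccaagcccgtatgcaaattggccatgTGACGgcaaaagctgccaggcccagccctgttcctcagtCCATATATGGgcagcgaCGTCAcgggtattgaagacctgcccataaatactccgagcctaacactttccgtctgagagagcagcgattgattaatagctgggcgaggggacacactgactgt

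The CArG box was found in the windows of Srf and Egr2, and not in those of Csrnp1, Ier3, Ier5 or Nab2. It occurs in 1.63% of all 32851 promoter windows. Srf held 2 CArG boxes, 82 and 62 bases before the gene start, together with a CRE half-site, an ETS site (8.86% of all windows) and an Egr site that overlaps a GC box (5.55% of all windows for the Egr site, 35.7% for the GC box). Egr2 had 5 annotated windows, of which 4 held a CArG box at 2 distinct positions, and the window shown also holds 2 CRE half-sites. The Ier3 window carried an NF-κB site that overlaps a GC box, and the NF-κB site occurs in 4.51% of all windows. Each of the 4 Csrnp1 windows held at least 1 CRE half-site (20.8% of all windows), and that of the farthest downstream start also held 2 AP-1 sites (7.81% of all windows). Nab2 held a GC box and none of the other motifs searched, and Ier5 held 2 GC boxes. Among the 6 genes an E-box was found only at the farthest upstream start of Egr2, where it overlaps a GC box (7.15% of all windows for the E-box). These matches describe letters in the windows, and binding was not measured here.

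Among the 10 genes, Csrnp1, Ier3 and Ier2 fell and Nab2 rose in IfitmF-/- cells, while Egr1, Egr2, Egr3, Ier5, Myc and Srf were not called. That is 4 of 10 called at an adjusted p under 0.05 (limma, Benjamini-Hochberg over all 34760 probe sets) beside 8.57% of the 19937 genes and 8.43% of probe sets. By direction, 3 of the 10 were lower, against 3.61% of all genes and 3.95% of probe sets, and 1 was higher, against 4.96% of all genes and 4.48% of probe sets. The median change of the 10 was -0.32, with a range of -1.30 to 0.98, and that of all genes was -0.020. For 9 of the 10, with Egr3 as the exception, the arrays of the genotypes did not overlap, but the same was true of 58.7% of all genes. Of these 9, 3 lay higher in IfitmF-/- cells (27.9% of all genes) and 6 lower (30.8% of all genes). For Csrnp1, Nab2, Ier3, Ier2 and Ier5 the separation between genotypes was larger than the largest difference between arrays of a genotype. The share of all genes that did so was not counted, so this describes each gene and not the set.

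**Figure D1:**
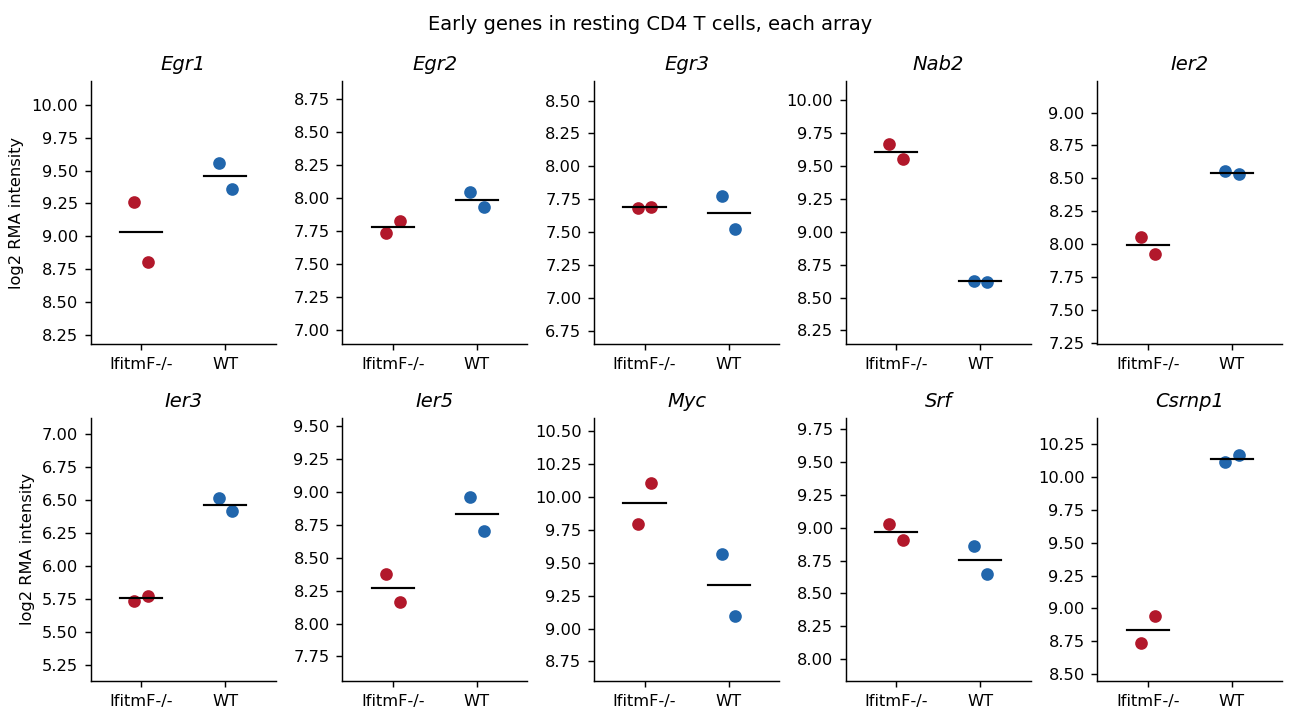
Log2 RMA intensity (y axis, a span of 2 log2 units in every panel) of the 10 early genes on the 2 IfitmF-/- arrays (red) and the 2 WT arrays (blue); black bars are means. The arrays of the genotypes lie far apart for Csrnp1 and Nab2, in opposite directions, and overlap for Egr3.

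Csrnp1, a nuclear protein gene that was first described as induced by the Wnt pathway component axin, had the largest change of the 10. Its probe set (10597758) read 8.74 and 8.94 on the IfitmF-/- arrays, against 10.11 and 10.16 on the WT arrays. Both IfitmF-/- values lay 1.17 or more below both WT values, while arrays of a genotype differed by at most 0.20. On the linear scale this was 426 and 491 units in IfitmF-/- cells and 1108 and 1147 units in WT cells. The change was -1.30 (95% interval -1.58 to -1.02), a 2.47-fold fall (adjusted p = 0.0144, limma), and 98.9% of all genes changed by less. It was the only one of the 10 to change by more than 2-fold, as did 2.41% of all genes. Its arrays spanned 721 linear units. The study's full criteria add to the adjusted p and the 2-fold change a span of 250 units or more. As applied here, they were met by 1.28% of all genes and, of the 10, by Csrnp1 alone. Its relatives Csrnp2 and Csrnp3 were not called. Csrnp2 read 7.96 on each IfitmF-/- array, against 8.20 and 8.27 on the WT arrays, and had a change of -0.28 (95% interval -0.49 to -0.065; adjusted p = 0.119). Csrnp3 averaged 5.02 ± 0.021 in IfitmF-/- cells and 5.11 ± 0.086 in WT cells (SD, n = 2 each), with a change of -0.093. These levels lay within the 4.36 to 6.47 of the deleted Ifitm genes on the IfitmF-/- arrays, so Csrnp3 was not clearly above background.

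Of the Egr factors and their corepressors, only Nab2 was called, and it rose. Nab2 (probe set 10373313) read 9.67 and 9.55 on the IfitmF-/- arrays, against 8.63 and 8.62 on the WT arrays. The WT arrays were nearly alike and both IfitmF-/- arrays lay well above them. Its change was 0.98 (95% interval 0.75 to 1.22), a 1.98-fold rise (adjusted p = 0.016, limma), and 98.7% of all genes had a lower signed change. The study lists Nab2 among genes of interest drawn from its differentially expressed genes, although here it fell short of a 2-fold change. Nab1, the other corepressor of the family, had 9.13 and 9.29 in IfitmF-/- cells and 9.44 and 9.55 in WT cells. Its change of -0.28 (95% interval -0.55 to -0.010) was not called (adjusted p = 0.177).

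Egr1, the founding member of its family, gave 9.27 and 8.80 in IfitmF-/- cells and 9.56 and 9.36 in WT cells. The IfitmF-/- arrays lay lower, but they differed from each other by 0.46, and only 0.096 separated the genotypes. Its change of -0.43 had a 95% interval of -0.93 to 0.073 (adjusted p = 0.243). Egr2, which with Egr3 restrains T cell activation and sustains tolerance, had 7.73 and 7.83 in IfitmF-/- cells and 8.04 and 7.93 in WT cells. The genotypes did not overlap, and the gap of 0.10 was about as wide as the spread within WT. Its change of -0.21 had a 95% interval of -0.45 to 0.037 (adjusted p = 0.246). Egr3 was at 7.68 and 7.69 in IfitmF-/- cells, between the WT values of 7.77 and 7.52. Its change of 0.040 had a 95% interval of -0.26 to 0.34 (adjusted p = 0.861), which leaves room for a rise of up to 1.27-fold. Egr4 had 6.81 and 6.65 in IfitmF-/- cells and 6.61 and 6.80 in WT cells and showed no separation (change 0.023, adjusted p = 0.923).

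Of the Ier genes, which share the name of immediate early response genes, Ier2 and Ier3 fell and Ier5 was not called. Ier2 encodes a nuclear protein of the early wave. It was at 8.06 and 7.93 in IfitmF-/- cells and at 8.55 and 8.53 in WT cells. Its change was -0.55 (95% interval -0.79 to -0.32), a 1.47-fold fall (adjusted p = 0.0393, limma), with 0.48 between the nearest arrays of the genotypes. Ier3, which modulates ERK signalling and cell survival and is a known NF-κB target, read 5.74 and 5.77 in IfitmF-/- cells, against 6.52 and 6.41 in WT cells. Its change was -0.71 (95% interval -0.94 to -0.48), a 1.64-fold fall (adjusted p = 0.0239, limma). Probe sets of the deleted Ifitm genes read 4.36 to 6.47 on the IfitmF-/- arrays. Both IfitmF-/- values of Ier3 and that of WT replicate 2 lay within this range, and that of WT replicate 1 just above it, so Ier3 was not clearly above background in either genotype.

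Ier5, a stress-induced gene whose product acts on heat shock factor, gave 8.38 and 8.17 in IfitmF-/- cells and 8.96 and 8.70 in WT cells. Its change of -0.56 was as large as that of Ier2, but its arrays scattered more (95% interval -0.93 to -0.20), and it was not called (adjusted p = 0.0866). Adjusted over the 21640 probe sets of 1 gene alone it was called (adjusted p = 0.049). Ier5l, a relative of Ier5, had 6.99 and 6.83 in IfitmF-/- cells and 7.37 and 7.34 in WT cells. Its change of -0.44 (95% interval -0.69 to -0.19) missed the threshold (adjusted p = 0.0658).

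Myc and Srf had positive changes that were not called. Myc, the growth-promoting transcription factor, was at 9.80 and 10.11 in IfitmF-/- cells and 9.56 and 9.09 in WT cells. Both IfitmF-/- arrays lay above both WT arrays, by 0.23, while the WT arrays differed by 0.47. The change was 0.62 with a 95% interval of 0.076 to 1.17, or 1.05-fold to 2.26-fold (adjusted p = 0.151). Srf gave 9.02 and 8.91 in IfitmF-/- cells and 8.86 and 8.65 in WT cells. Only 0.046 separated the genotypes, and the change of 0.21 had a 95% interval of -0.089 to 0.51 (adjusted p = 0.318). Mycn and Mycl, the relatives of Myc, were not called either. Mycn read 6.53 and 6.55 in IfitmF-/- cells and 6.49 and 6.47 in WT cells, and Mycl 5.96 and 5.67 in IfitmF-/- cells and 5.75 and 5.71 in WT cells. Mycl lay within the 4.36 to 6.47 of the deleted Ifitm genes on the IfitmF-/- arrays, and Mycn just above it. Neither was clearly above background.

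**Figure D2:**
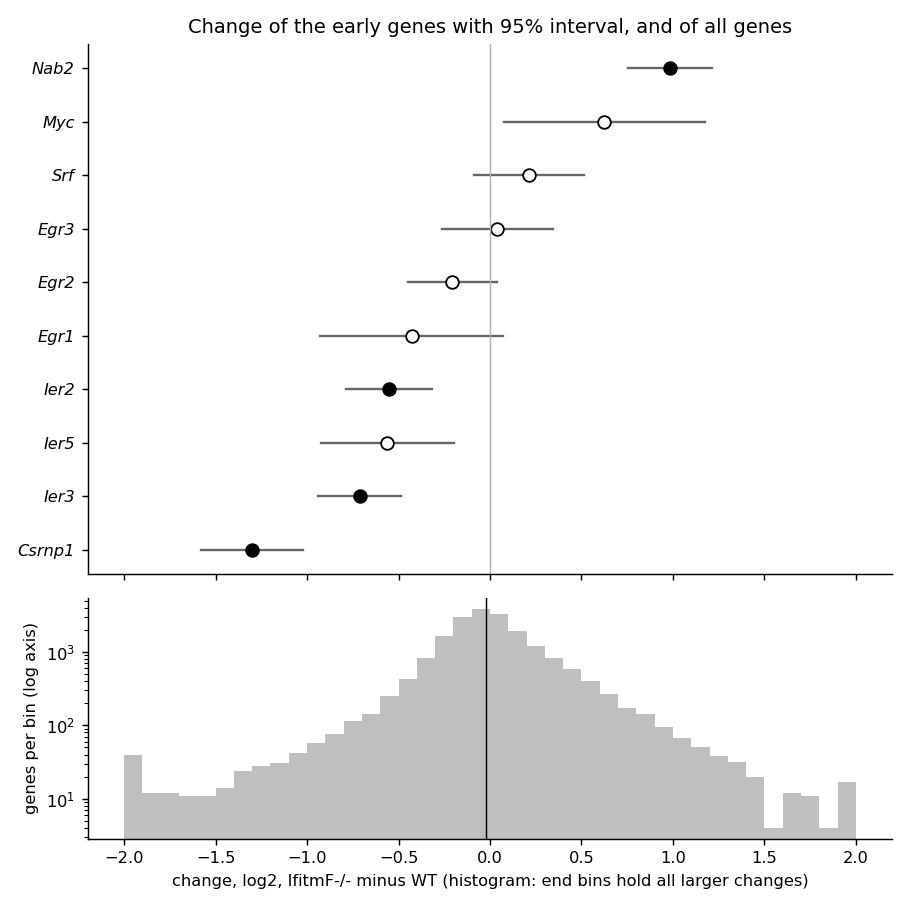
Upper panel, change of each early gene (x axis, log2, IfitmF-/- minus WT) with its 95% interval from limma (line), filled where the adjusted p is under 0.05; lower panel, the number of all 19937 genes at each change (log axis), with a line at their median. Csrnp1 at -1.30 and Nab2 at 0.98 lie in the outer parts of the distribution, and Egr3 at 0.040 lies near its centre.

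Cofactors of SRF, genes upstream of it and ETS factors were examined next. Of these 10 genes, 1 rose (4.96% of all genes) and 1 fell (3.61% of all genes), with a median change of -0.022. Mrtfa, the actin-regulated coactivator of SRF, rose by 0.68 (9.82 and 9.71 in IfitmF-/- cells, 9.08 and 9.09 in WT cells; adjusted p = 0.0256). Ets2, an ETS factor outside the Elk group, fell by 2.15 (8.45 and 8.75 in IfitmF-/- cells, 10.80 and 10.71 in WT cells; adjusted p = 0.0131). The second coactivator, Mrtfb, had a change of 0.16 (adjusted p = 0.399), and its other probe sets had 0.42 and 0.29. Elk1, Elk3 and Elk4, the ternary complex factors, had changes of 0.028, 0.11 and -0.11. Of 18 cytoskeletal genes that SRF is known to drive, 0 were called by limma over all probe sets, beside 8.57% of all genes. At an unadjusted p under 0.05, 6 of the 18 were higher (14.3% of all genes) and 1 was lower (11.5% of all genes), and the median change of the 18 was 0.19. Those of smallest p were Coro1a (0.36), Pfn1 (0.35), Cap1 (0.34) and Tpm1 (0.39), with adjusted p values of 0.101 to 0.141.

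The partners of Myc moved in both directions. Of 13 genes of the Max network and of Myc turnover, 2 rose and 2 fell, with a median change of -0.18. Calls were made for 4.96% of all genes as higher and for 3.61% as lower. Mxd1, which competes with Myc for Max and represses its targets, fell by 1.34 (9.08 ± 0.10 in IfitmF-/- cells and 10.42 ± 0.012 in WT cells, mean ± SD, n = 2 each; adjusted p = 0.0141 in limma). Mxd4, of the same group, fell by 0.44 (9.08 on each IfitmF-/- array, 9.49 and 9.55 in WT cells; adjusted p = 0.0473, or 0.0554 with arrays centred on their median). Mlx, a Max-like partner protein gene, rose by 0.52 (9.79 and 9.69 in IfitmF-/- cells, 9.25 and 9.18 in WT cells; adjusted p = 0.0416). Usp28, a deubiquitinase gene whose product stabilises Myc, rose by 0.54 (9.20 and 9.14 in IfitmF-/- cells, 8.57 and 8.68 in WT cells; adjusted p = 0.0397). Max itself had a change of 0.19 (adjusted p = 0.31).

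Of 23 measured genes that Myc is known to activate, 0 rose and 2 fell, with a median change of -0.033. Among all genes, 4.96% were called higher and 3.61% lower, or 8.57% in either direction. Odc1, the rate-limiting enzyme of polyamine synthesis, fell by 1.84 (9.42 and 9.33 in IfitmF-/- cells, 11.15 and 11.28 in WT cells; adjusted p = 0.0115), and its second probe set had a change of -1.999 (adjusted p = 0.0139). Hspd1, a mitochondrial chaperone gene, fell by 0.55 (9.77 and 9.75 in IfitmF-/- cells, 10.33 and 10.30 in WT cells; adjusted p = 0.0311), and its second probe set by 0.69. Gnl3 and Nop58, genes of the nucleolus, had changes of -0.69 and -0.42 and missed the threshold (adjusted p = 0.0552 and 0.0583).

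Of 20 genes linked to Egr2 and Egr3 in T cells, 5 were lower and 1 was higher, with a median change of -0.12. Of all genes, 3.61% were called lower and 4.96% higher. Nfil3, a transcription factor gene, fell by 1.71 (7.20 on each IfitmF-/- array, 9.10 and 8.71 in WT cells; adjusted p = 0.0161). The antiproliferative gene Tob1 fell by 0.85 (adjusted p = 0.0179) and Fasl, which encodes a death receptor ligand, by 0.88 (adjusted p = 0.0288). The cytokine signalling suppressor gene Socs3 fell by 1.08 (adjusted p = 0.0182), but its dimmer probe set, at -0.45, was not called (adjusted p = 0.193). Tnfrsf9, another of the 5, encodes a costimulatory receptor and fell by 0.73 (adjusted p = 0.0362). The gene that rose was Il2ra, an interleukin 2 receptor chain (0.51, adjusted p = 0.0379).

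**Figure D3:**
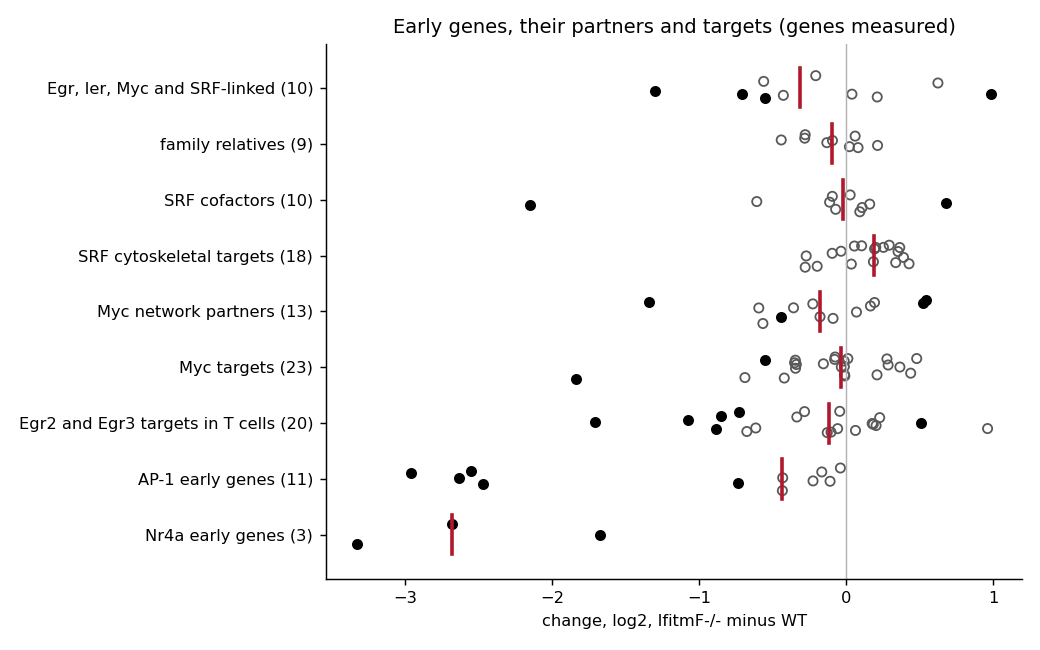
Change of every measured gene (circle, x axis, log2, IfitmF-/- minus WT) in the early gene set, its partner and target lists and the AP-1 and Nr4a early genes, with the number measured in brackets; filled circles have an adjusted p under 0.05 and red bars are medians. The early gene set has a median of -0.32 and spans both sides of 0, while every AP-1 and Nr4a gene lies below 0.

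Other early genes on the same arrays give a measure of how the 10 stand. Of 11 AP-1 genes 5 fell (3.61% of all genes) and 0 rose (4.96% of all genes), with a median change of -0.43. All 3 Nr4a genes fell, with a median of -2.68. Among the 10 genes described here the largest fall, that of Csrnp1 at -1.30, was smaller than each of the 3 Nr4a falls. It was also smaller than those of Atf3 (-2.96), Maff (-2.63), Fosl2 (-2.55) and Fosb (-2.47), but larger than that of Mafk (-0.73). The other 6 AP-1 genes, among them Fos (-0.039) and Jun (-0.11), were not called. These lists share all arrays, and the difference between them was not tested.

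Other cell types in the preparations were gauged from their markers. Of 11 T cell markers, Cd3d (0.59), Cd3g (0.59) and Il7r (0.46) rose and Ccr7 (-0.87) and Cd28 (-0.74) fell, while Cd4 read 11.79 and 11.71 in IfitmF-/- cells and 11.44 and 11.52 in WT cells and was not called. Neither CD8 marker was called, and they had opposite signs. Cd8a read 5.85 and 5.98 in IfitmF-/- cells and 6.71 and 6.21 in WT cells, and Cd8b1 8.56 and 8.50 in IfitmF-/- cells and 8.64 and 8.06 in WT cells. B cell markers stood high on WT replicate 1. Their summed linear intensity over 13 of 14 genes was 4494 and 7088 units on the IfitmF-/- arrays and 16214 and 5610 units on the WT arrays, and 0 of the 13 were called. On that same array 9 of the 10 early genes, all but Csrnp1, were higher than on WT replicate 2. The mean log2 level over all genes was 6.73 on each WT array, and the share of all genes higher on WT replicate 1 was not counted. Plasma cell markers lay lower in IfitmF-/- cells without overlap for 5 of 5 genes, as did 30.8% of all genes, with summed levels of 2009 and 1894 units in IfitmF-/- cells and 3953 and 2719 units in WT cells, and 1 of them, Derl3, fell. Erythroid and platelet markers (8 of 12 genes measured) summed to 10657 and 15868 units in IfitmF-/- cells and 6149 and 6035 units in WT cells, with 0 called. Myeloid and neutrophil markers gave 6252 and 11800 units in IfitmF-/- cells and 9376 and 5785 units in WT cells over 15 genes, of which Retnlg rose. These sums overlapped between genotypes. NK cell markers gave 2467 and 2244 units in IfitmF-/- cells and 2939 and 2387 units in WT cells over 8 genes. Their members went both ways: the bright Nkg7 fell (-0.89), whereas 6 of the 8 had positive changes, 4 of them at an unadjusted p under 0.05 and none called, among them Klrd1 (1.11), Ncr1 (0.75) and Klrb1c (0.58). The part of these cells in the changes of the early genes was not tested, and fewer cells of a type cannot be told apart from less RNA per cell. Without WT replicate 1, the changes were -1.33 for Csrnp1, 0.99 for Nab2, -0.66 for Ier3, -0.54 for Ier2, -0.43 for Ier5 and 0.86 for Myc.

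The genotypes also differed in sex. Xist, transcribed from the inactive X chromosome of female cells, was at 4.86 and 4.43 on the IfitmF-/- arrays and 11.32 and 11.25 on the WT arrays. The Y-linked gene Eif2s3y was at 9.48 and 9.61 in IfitmF-/- cells and 3.90 and 4.05 in WT cells. All 10 early genes are autosomal, and sex and genotype cannot be told apart for any of them. The deletion itself was seen in Ifitm3, with 4.61 and 4.36 in IfitmF-/- cells and 9.26 and 8.91 in WT cells.

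With any 1 of the 4 arrays left out, limma called 0 of the 10 genes and 0 of all probe sets. Csrnp1 kept a change between -1.40 and -1.20, Nab2 between 0.92 and 1.04, Ier3 between -0.76 and -0.66 and Ier2 between -0.62 and -0.49. Egr1 was less steady, at -0.66 to -0.20, as was Myc, at 0.39 to 0.86, and Egr3 changed sign without WT replicate 2 (-0.084). In an exact permutation test, 2 arrays against 2 cannot give a two-sided p below 0.333.

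**Figure D4:**
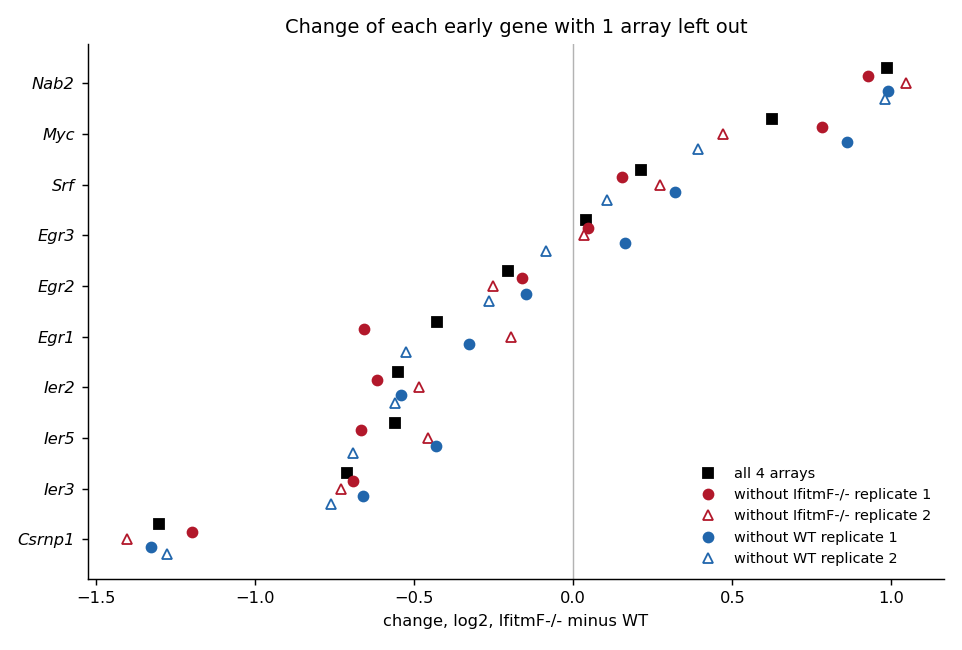
Change of each early gene (x axis, log2, IfitmF-/- minus WT) from all 4 arrays (black squares) and with 1 array left out (red, an IfitmF-/- array; blue, a WT array; filled circles, replicate 1; open triangles, replicate 2). Csrnp1 stays between -1.40 and -1.20 and Nab2 between 0.92 and 1.04, while Egr1 and Myc spread more widely.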

How the data were processed

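The authors deposited RMA-normalised intensity on a linear scale, with 1 column for each of the 4 Affymetrix Mouse Gene 1.0 ST arrays. RMA corrects background, makes the distributions of the arrays equal and summarises probe sets, so a shift shared by all genes would be removed. RMA and affy are credited to the submitters' processing notes, and their versions are not given in the sources used here. Median intensities were 75.9 and 74.8 on the IfitmF-/- arrays and 77.1 and 78.1 on the WT arrays.

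The log2 of these deposited values was fitted over 34760 probe sets with limma (version 3.58.1, R version 4.3.3), with genotype as the only term and empirical-Bayes moderation. As in the study, the false discovery rate was controlled, here by the Benjamini-Hochberg method over all probe sets. The fit was also tested on simulated data. The number of arrays limits the precision. In the platform annotation 21640 probe sets had 1 gene, 1321 had more than 1 and 11799 had no gene. Current symbols came from a GRCm38.p6 gene table that held 21553 of the 21640, by which Mkl1 and Mkl2 are called Mrtfa and Mrtfb. Listed genes without a probe set of their own were not analysed here.

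All 10 genes and their probe sets were named, together with family relatives and up to 4 genes of smallest p in each partner or target list. Elk1, Elk3, Elk4, Max, Tnfrsf9 and Il2ra were named after their values were seen. The 10 genes and the lists were chosen with earlier results of these data known. Alternatives varied the moderation, scaling, pseudocount, filters, probe set choice, replicate block, test and arrays used.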

Additional observations from a re-analysis of the deposited data

How the results depend on the processing

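The directions of all 10 early genes held under the alternatives that used all 4 arrays, and Csrnp1 and Nab2 were called in each of these except the replicate block, the test without moderation and, for Nab2, the study's full criteria. Egr3 (-0.084 to 0.16) and Egr4 (-0.073 to 0.12, and -0.055 without IfitmF-/- replicate 1) changed sign with 1 array left out and were called under no alternative. Of all probe sets, 2930 were called. With the replicate number as a block (replicate block) limma called 0 of all probe sets and 0 of the 10 genes, with 8016 probe sets and 6 of the 10 genes at an unadjusted p under 0.05; 1 residual degree of freedom remains in that fit. Deviations of same-numbered arrays correlated at -0.12 over all probe sets, and the labels tie no number to a shared batch or day. The crossed pairing, added after the data were seen, called 975 probe sets and 2 of the 10 genes, Csrnp1 and Nab2. A test of each probe set without moderation of its variance called 4 probe sets and 0 of the 10 genes after Benjamini-Hochberg adjustment, and 6811 and 4 at an unadjusted p under 0.05. The study's full criteria as applied here left 403 probe sets and 1 of the 10 genes, Csrnp1. The study reports a larger number of differentially expressed genes by its criteria, so its list was not reproduced here. As applied here, the criteria left out Nab2, which the study itself lists among its genes of interest. Leaving out 1 array gave 0 calls by limma among all probe sets (6062 to 9107 at an unadjusted p under 0.05) and 0 among the 10 genes, with a median change of the 10 genes between -0.40 and -0.22. Without dim probe sets the median change was -0.21 over 9 genes, as Ier3 is left out. Ier5 was called only when probe sets of 1 gene were tested.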
